A study of Homo sapiens with 4 samples.

Results

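The mitochondrial ribosomal proteins were examined in DU145 cells, an established line from a human prostate carcinoma metastasis, with and without knockdown of DCUN1D1. Their genes were taken as every gene whose symbol is MRPL or MRPS followed by a number and, in a few cases, a letter from A to C, measured by probe sets that the array's annotation assigns to 1 gene only. This gave 75 genes of 19774 and 137 probe sets of 40914. A probe set comprises several short probes that read the same transcript. Of the 75 genes, 48 are named MRPL and 27 MRPS, and 41 were measured by 1 probe set and 34 by several, at most 5. For genes with several, the values given are those of the probe set that was brightest on average over all arrays. MRPS17 and MRPL53 have only probe sets that name a second gene and were left out.

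RNA was measured on 4 arrays, 2 per group, described as biological duplicates. Control cells (DU145-GFP) had received a lentiviral shRNA against GFP, a protein that human cells lack, and knockdown cells (DU145-DCUN1D1-KD) a lentiviral shRNA against DCUN1D1, which encodes a protein that helps attach the ubiquitin-like protein NEDD8 to cullins. Cells of both groups were grown in DMEM with serum before RNA was extracted. More than one shRNA against DCUN1D1 is mentioned in the study's methods, and neither knockdown array is labelled with the one it carried. The treatment record also lists DMSO without saying which cells received it. Values are log2 signal. The p-values weigh the difference between the groups against the spread between these arrays. Whether the spread of the knockdown arrays includes a difference between shRNAs is not known.

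The mitochondrial ribosome translates the few messages encoded by mitochondrial DNA, all of which specify subunits of the respiratory chain and ATP synthase. Its RNAs come from mitochondrial DNA, whereas its proteins are encoded in the nucleus, translated in the cytosol and imported. The large subunit forms peptide bonds and the small subunit decodes the message. Some of its proteins have counterparts in bacterial ribosomes and others are found only in mitochondria. By this background knowledge 50 of the 75 genes encode proteins of the large subunit and 25 of the small subunit, since MRPS30 and MRPS18A sit in the large subunit despite their names. Proteins with a bacterial counterpart account for 44 of the genes and mitochondrion-specific proteins for 31.

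The arrays were dim for most genes, and one of them stood apart. The median over all genes was 1.88 and 1.85 in the control arrays and 1.85 and 1.88 in knockdown replicates 1 and 2. As a reference for signal without a matching transcript, the array's nonspecific control probes with 20 G or C bases read 2.97 and 3.30 in the control arrays and 2.48 and 2.51 in the knockdown arrays. The array's own probe set for the 3′ end of GAPDH read 5.02 and 4.68 in the control arrays, 10.82 in knockdown replicate 1 and 5.09 in knockdown replicate 2. The matching probe set for ACTB read 4.05, 3.95, 8.30 and 4.35 in the same order. Both control transcripts were thus far brighter at the 3′ end in knockdown replicate 1 than in any other array. In that order the middle probe set of ACTB read 10.26, 9.65, 10.48 and 10.55, and the 5′ one 8.52, 8.06, 9.21 and 8.79. For GAPDH the middle probe set read 9.39, 9.05, 11.07 and 10.01, and the 5′ one 6.6, 6.42, 9.67 and 7.14. Knockdown replicate 1 thus stood apart most at the 3′ end. In the other arrays the 3′ probe set of each transcript read below its middle and 5′ ones. Whether knockdown replicate 1 or the other arrays are the unusual ones was not tested. The part of RNA quality or labelling in these differences was not tested. The array's control probe set for the middle of BioB differed between the groups. It read 8.22 and 10.49 in the control arrays and 6.37 and 6.22 in knockdown replicates 1 and 2. The part of this in differences between the groups was not tested. DCUN1D1 itself read 2.55 and 1.99 in the control arrays against 1.60 and 1.45 in the knockdown arrays, a log2 difference of -0.75 (SE 0.26), below the nonspecific control in all arrays. It was not past the fold bound defined below and had an adjusted p of 0.590 by limma. Its mean over 6 probe sets differed by -0.22. Of 7 epithelial markers, KRT8 alone was above the nonspecific control in all arrays, at 3.25 to 3.73, while KRT18 read 1.68, 1.63, 7.62 and 1.69. The defining markers of luminal prostate cells, fibroblasts, leukocytes and endothelial cells had medians from 1.61 to 2.77. Of them, only the fibroblast marker COL1A1 was above the nonspecific control in all arrays, at 3.38, 4.06, 3.51 and 4.75. Another fibroblast marker, PDGFRB, was lower in knockdown cells past the bound.

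Mitochondrial ribosomal protein genes were high in knockdown replicate 1 and lay with the controls in knockdown replicate 2. Their median signal was 2.11 and 1.99 in the control arrays, 3.78 in knockdown replicate 1 and 2.08 in knockdown replicate 2. Knockdown replicate 1 held the highest of the 4 values for 66 of the 75 genes (88%), against 22.1% of all genes. In that array 65 of the 75 genes exceeded the nonspecific control, as did 27.8% of all genes. In the other arrays 16, 11 and 20 of the 75 genes did so, for control replicates 1 and 2 and knockdown replicate 2, against 15.2%, 10.4% and 23.3% of all genes. In these bulk samples more or fewer cells of a kind and more or less RNA per cell cannot be told apart. The GAPDH and ACTB 3′ probe sets were highest in the same array as these genes, and the part of this in the result was not tested.

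**Figure D1:**
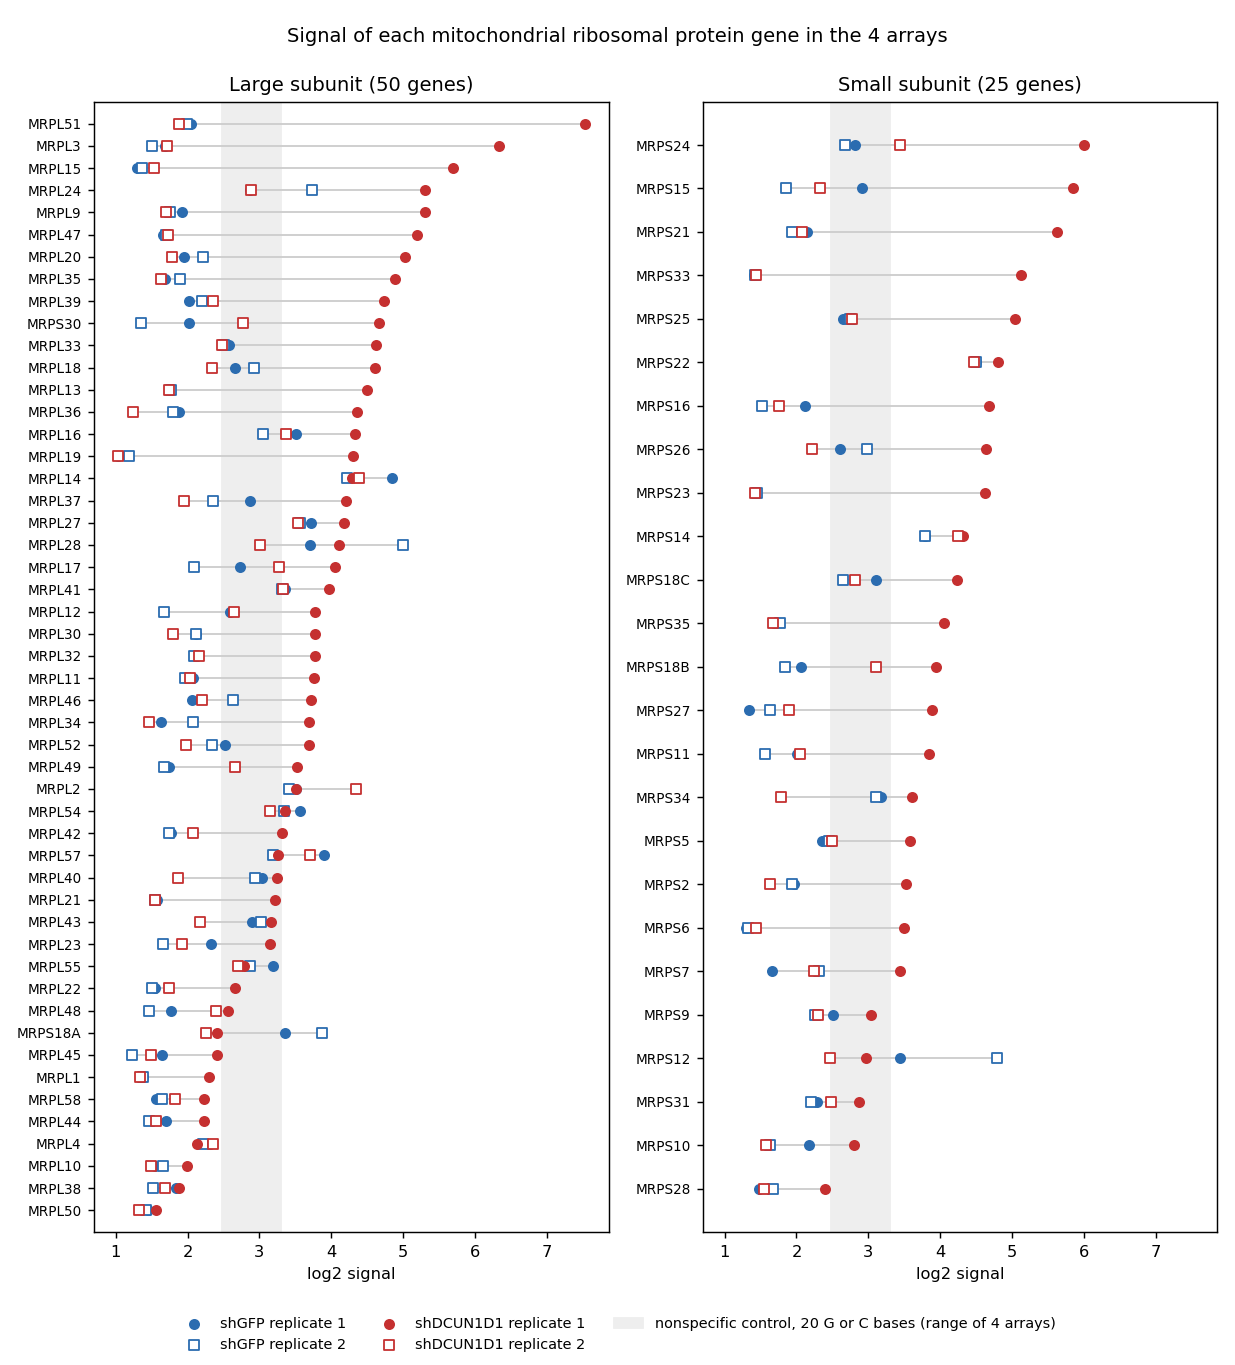
Log2 signal (horizontal axis) of each mitochondrial ribosomal protein gene, 1 row per gene on its brightest probe set, for the 50 large-subunit genes on the left and the 25 small-subunit genes on the right. Filled blue and open blue marks are control replicates 1 and 2, filled red and open red marks knockdown replicates 1 and 2, and the grey band spans the nonspecific control from 2.48 to 3.30 over the 4 arrays. The filled red mark is the rightmost in 66 of the 75 rows, while the open red mark mostly lies among the blue ones.

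The difference of each knockdown array from the control mean shows the split. Over the 75 genes the median difference was 1.57 in knockdown replicate 1 and -0.02 in knockdown replicate 2, against -0.09 and 0.01 over all genes. Knockdown replicate 1 lay above both control arrays for 67 genes (89.3%, against 30.2% of all genes) and below both for 4 (5.33%, against 46.9%). Knockdown replicate 2 lay above both for 25 genes (33.3%, against 38.1% of all genes) and below both for 31 (41.3%, against 35.2%). It lay between them for 19 (25.3%, against 26.7%). It was within 0.5 log2 of the control mean for 58 of the 75 genes (77.3%), near the 77.9% of all genes. Averaged over both knockdown arrays, the median log2 difference of the 75 genes was 0.67 (interquartile range 0.31 to 1.34) and that of all genes -0.01 (interquartile range -0.24 to 0.26). The first of these medians therefore describes mainly 1 of the 2 knockdown arrays.

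**Figure D2:**
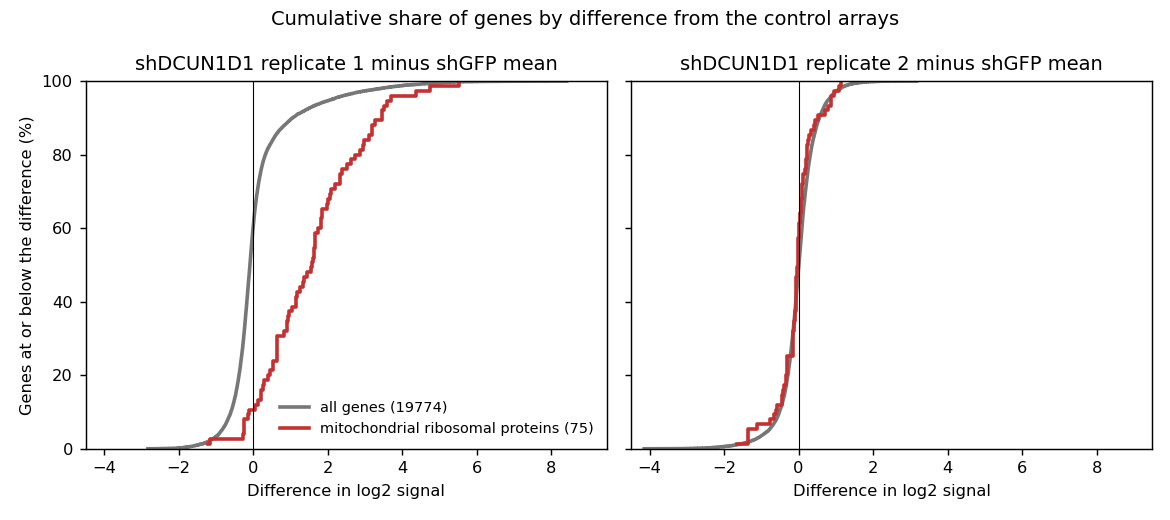
Cumulative share of genes (vertical axis, percent) by the difference in log2 signal from the control mean (horizontal axis), for knockdown replicate 1 on the left and replicate 2 on the right, with the 75 mitochondrial ribosomal protein genes in red and all 19774 genes in grey. The red curve lies to the right of the grey one in replicate 1, with medians of 1.57 and -0.09, and runs along it in replicate 2, with medians of -0.02 and 0.01.

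Few of the 75 genes differed between the groups beyond the spread of the arrays. A gene was called past the fold bound when the lower 90% confidence limit of its fold change exceeded 1.2, the kind of rule the study used. Of the 75 genes, 5 were higher in knockdown cells past this bound, where 1.57% of all genes were, and 1 was lower, where 3.64% of all genes were. By limma's adjusted p at 0.05, 0 of the 75 genes and 0% of all genes were called, and the smallest adjusted p among the 75 was 0.590. At an unadjusted p under 0.05 limma gave 6 of the 75 genes, 5 higher and 1 lower, against 8.39% of all genes. The methods' t-test, which uses each gene's own spread, gave 2 genes higher and 1 lower at that threshold, against 7.55% of all genes in both directions, and 0 after Benjamini-Hochberg adjustment, against 0.00506%. Over all probe sets, 6 of 137 were higher past the bound, against 1.18% of the 40914, and 1 was lower, against 2.38%. With 2 arrays against 2, an exact two-sided permutation test of a single gene cannot give a p below 0.333.

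Both knockdown arrays lay above both control arrays for 24 of the 75 genes, as they did for 18.4% of all genes, and below both for 3, as they did for 26.3%. The log2 difference was positive for 64 of the 75 genes, against 48.5% of all genes. These counts include knockdown replicate 1, in which nearly all of the genes were high. Leaving it out left 4 genes higher past the bound, near the background of 3.59% of all genes, and 4 lower, where 3.11% of all genes were. Leaving out knockdown replicate 2 in its place gave 50 genes higher past the bound, where 11.4% of all genes were, and 1 lower, where 2.98% were. In that fit limma's adjusted p called 35 of the 75 genes and 7.3% of all genes. With 1 knockdown array, the spread comes from the control arrays alone, and the lone array is assumed to vary as they do.

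The genes higher past the bound encode 1 small-subunit and 4 large-subunit proteins. MRPS30, a mitochondrion-specific protein of the large subunit, read 2.02 and 1.36 in the control arrays and 4.66 and 2.78 in the knockdown arrays. Its log2 difference was 2.03 (SE 0.70, lower bound 1.53-fold). MRPS18B, a small-subunit protein related to bacterial S18, read 2.06 and 1.84 in control cells against 3.94 and 3.11 in knockdown cells, a difference of 1.57 (SE 0.39, bound 1.71-fold). In both genes the groups did not overlap, and knockdown replicate 1 was the higher of the knockdown arrays. MRPL49, a mitochondrion-specific protein, read 1.74, 1.67, 3.53 and 2.66 in the order control 1, control 2, knockdown 1 and knockdown 2, a difference of 1.39 (SE 0.37, bound 1.56-fold). MRPL17, with a bacterial counterpart at the peptide exit side of the large subunit, read 2.72, 2.09, 4.05 and 3.27 in that order, a difference of 1.25 (SE 0.45, bound 1.27-fold). MRPL48, a mitochondrion-specific protein, read 1.77, 1.46, 2.56 and 2.39, a difference of 0.86 (SE 0.23, bound 1.31-fold). MRPL48 had knockdown arrays close to each other, and its 4 values all lay near or below the nonspecific control. Limma's adjusted p was 0.590 for each of these 5 genes.

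MRPS18A, the paralog of MRPS18B that sits in the large subunit, was the gene lower past the bound. It read 3.35 and 3.88 in the control arrays and 2.41 and 2.26 in the knockdown arrays, a log2 difference of -1.28 (SE 0.35, bound 1.48-fold, limma adjusted p 0.590). Both knockdown values were below the nonspecific control and both control values above it. The nonspecific control was itself lower by 0.64 in knockdown cells, and its part in the difference was not tested. MRPS18C, the remaining paralog and the direct counterpart of bacterial S18 in the small subunit, read 3.11 and 2.65 in the controls against 4.23 and 2.82, a difference of 0.64 (SE 0.58), and was not past the bound. The 3 paralogs thus gave a higher, a lower and an overlapping set of values. Their other probe sets did not repeat this. A second probe set of MRPS18A gave a log2 difference of -0.09, one of MRPS18B -0.62, and those of MRPS18C -0.06 and 0.09. Averaged over probe sets the difference was -0.68 for MRPS18A and 0.48 for MRPS18B, neither past the bound.

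**Figure D3:**
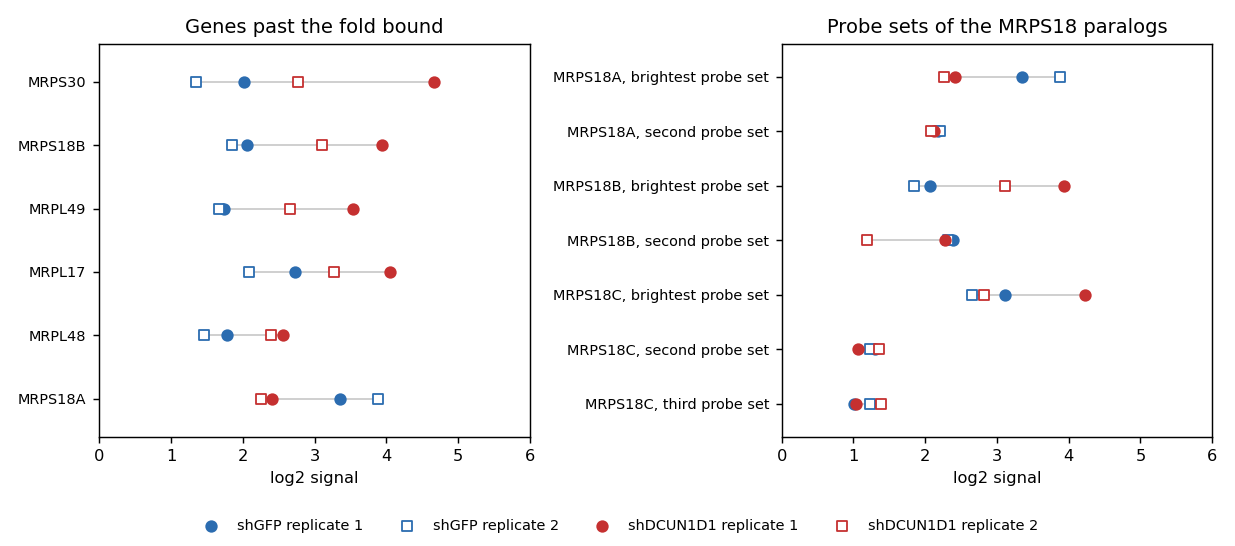
Log2 signal (horizontal axis) in each of the 4 arrays, for the 6 genes past the fold bound on the left and for every probe set of the MRPS18 paralogs on the right, with blue marks for control and red for knockdown arrays, filled for replicate 1 and open for replicate 2. Blue and red marks do not overlap for the 6 genes, and on the right they are apart only for the brightest probe sets of MRPS18A and MRPS18B and, by small steps, for the dimmer ones of both.

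Without knockdown replicate 1, MRPS18B, MRPS30, MRPL49 and MRPL48 were still higher past the bound, at log2 differences of 1.15, 1.09, 0.95 and 0.78, whereas MRPL17, at 0.86, was not. Without it the genes lower past the bound were MRPS18A at -1.36, MRPS12 at -1.65, MRPS34 at -1.36 and MRPL40 at -1.12. MRPS34 and MRPL40, mitochondrion-specific proteins of the small and the large subunit, complete this count and were picked with their values known. MRPS34 read 3.18 and 3.10 in the controls, 3.60 in knockdown replicate 1 and 1.78 in knockdown replicate 2. MRPL40 read 3.04 and 2.94 in the controls, 3.24 in knockdown replicate 1 and 1.87 in knockdown replicate 2. In both, the knockdown arrays lay on opposite sides of the controls. The calls also leaned on the control arrays: without control replicate 1, MRPL48 and MRPS18B were higher past the bound, where 1.41% of all genes were, and MRPS12 and MRPS18A lower, where 4.67% were. Without control replicate 2, 0 of the 75 genes were higher, where 0.197% of all genes were, and 0 lower, where 1.73% were.

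MRPS12, the counterpart of the bacterial decoding-centre protein S12, had the most negative difference of the 75 genes. It read 3.44 and 4.80 in control cells against 2.97 and 2.47 in knockdown cells, a log2 difference of -1.40 (SE 0.58). The groups did not overlap, but the control arrays differed by more than the lower control did from knockdown replicate 1, and the gene was not past the bound. A second MRPS12 probe set read 1.98, 1.49, 4.03 and 1.66, a difference of 1.10 in the other direction. The remaining probe sets of MRPS12 gave 0.0055 and -0.28, and the mean over its 4 probe sets was -0.14. On the brightest probe set MRPS12 was lower past the bound with quantile normalization (-1.82), without control replicate 1 (-2.08) and without knockdown replicate 1, but not without control replicate 2 (-0.72). MRPL55, a mitochondrion-specific protein, was the third gene with both knockdown arrays below both controls, at 3.19, 2.87, 2.79 and 2.71, a difference of -0.29 (SE 0.31).

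A group of genes was far brighter in knockdown replicate 1 alone. For 21 of the 75 genes (28%) that array exceeded each of the others by more than 2 log2, as it did for 4.32% of all genes, a limit set with the values known. No gene of the 75 stood out in this way in any other array. The 21 genes ranged from 3.50 to 7.54 in knockdown replicate 1 (median 5.03) and from 1.03 to 3.45 in the other arrays (median 1.76). Their difference between knockdown replicate 2 and the control mean ran from -0.60 to 0.70, with a median of -0.02. Because the knockdown arrays disagreed, their standard errors were 0.69 to 1.85 and 0 of the 21 passed the fold bound.

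MRPL3, which reaches towards the peptidyl transferase centre of the large subunit, read 1.69 and 1.50 in the controls, 6.33 in knockdown replicate 1 and 1.71 in knockdown replicate 2. MRPL15, a large-subunit protein with a bacterial counterpart, read 1.30, 1.36, 5.70 and 1.53. MRPS33, a mitochondrion-specific protein of the small subunit, read 1.41, 1.42, 5.12 and 1.44. In each of these, knockdown replicate 2 differed from the control mean by at most 0.20 log2 while knockdown replicate 1 was several log2 above it. MRPL47, the counterpart of bacterial L29, read 1.66, 1.69, 5.19 and 1.72, and MRPL39, a mitochondrion-specific protein, read 2.01, 2.21, 4.73 and 2.35. MRPS24, a small-subunit protein, read 2.82, 2.67, 6.01 and 3.45, which placed both knockdown arrays above the nonspecific control and both controls below it. The log2 difference was 2.42 (SE 1.51) for MRPL3 and 1.98 (SE 0.91) for MRPS24, and neither was past the bound, though MRPS24 was with quantile normalization, at 1.52. MRPL51, a mitochondrion-specific protein named after its values were seen, had the widest step, from 2.05, 1.99 and 1.88 in the other arrays to 7.54. Its probe set, like that of MRPL35 in the same group, is of a kind that can cross-hybridise to other sequences.

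The remaining genes of the group were MRPL9, MRPL13, MRPL19, MRPL20, MRPL33, MRPL35 and MRPL36 of the large subunit and MRPS6, MRPS15, MRPS16, MRPS21, MRPS23, MRPS25 and MRPS35 of the small subunit. The step was found in 12 of the 50 large-subunit genes (24%) and 9 of the 25 small-subunit genes (36%). Of genes with a bacterial counterpart 15 of 44 (34.1%) showed it, and of mitochondrion-specific genes 6 of 31 (19.4%). Within the large subunit these were 10 of 29 (34.5%) and 2 of 21 (9.52%). Within the small subunit the order was reversed, at 5 of 15 (33.3%) and 4 of 10 (40%). The median difference of knockdown replicate 1 from the control mean was 1.47 for the large subunit and 1.84 for the small, and 1.66 for genes with a bacterial counterpart and 0.97 for the others. In knockdown replicate 2 the same medians were -0.05, -0.02, -0.05 and -0.02. Differences between these classes were not tested. Neither subunit, and neither class by origin, was free of the step or stood apart from the controls in knockdown replicate 2.

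Genes above the nonspecific control in all arrays lay on both sides of 0. Of the 75 genes, 8 exceeded the nonspecific control in all arrays (10.7%, against 7.64% of all genes): MRPL2, MRPL14, MRPL27, MRPL28, MRPL41, MRPL54, MRPS14 and MRPS22. Their log2 differences ran from -0.79 to 0.49 with a median of 0.18, 5 positive and 3 negative, and 0 were past the bound. MRPS22, a mitochondrion-specific protein of the small subunit, read 4.50, 4.50, 4.80 and 4.47, a difference of 0.13. This probe set is, like that of MRPL51, of the kind that can cross-hybridise. Another MRPS22 probe set, not of that kind, read 0.97, 0.99, 0.99 and 1.19. MRPS14, a small-subunit protein, read 3.79 in both control arrays and 4.32 and 4.24 in knockdown cells, a difference of 0.49 (SE 0.41) with no overlap between groups. MRPL14, on the face of the large subunit that meets the small one, read 4.85, 4.21, 4.29 and 4.38, a difference of -0.20.

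MRPL28, a large-subunit protein, read 3.70, 5.01, 4.11 and 3.01, so that the controls spanned more than the difference of -0.79 (SE 0.68). That difference ran from -1.44 without control replicate 1 to -0.14 without control replicate 2, with -1.35 and -0.24 without knockdown replicates 1 and 2, and was -1.38 with quantile normalization. MRPL27, whose bacterial counterpart reaches the peptidyl transferase centre, read 3.71, 3.56, 4.17 and 3.54, a difference of 0.22. MRPL41, a mitochondrion-specific protein, read 3.36, 3.31, 3.97 and 3.33, a difference of 0.31. MRPL2, which helps form the peptidyl transferase centre, read 3.51, 3.41, 3.52 and 4.34 and was the reverse case, with knockdown replicate 2 as the high array. The groups overlapped for MRPL28, MRPL27 and MRPL41, and the lower knockdown value of MRPL2 lay barely above its controls. MRPL12, the stalk protein that recruits translation factors, was dimmer, at 2.59 and 1.67 in control cells against 3.78 and 2.65 in knockdown cells, a difference of 1.08 (SE 0.54) that was not past the bound.

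Probe sets of the same gene often disagreed. Of the 34 genes with several probe sets, 7 had all of them higher in knockdown cells, MRPS18A had all of them lower, and 26 had some higher and some lower. The 2 log2 step of knockdown replicate 1 appeared in 25 of the 137 probe sets (18.2%), against 3.46% of all probe sets. It appeared in at least 1 probe set of 12 of the 34 genes, and in 2 or more only for MRPL9, a large-subunit protein with a bacterial counterpart. The probe sets of MRPL9 read 1.92, 1.76, 5.31 and 1.70, and 1.05, 1.12, 6.33 and 1.23. Both placed knockdown replicate 1 far above arrays that otherwise lay together.

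Of the 62 dimmer probe sets, which did not represent their gene above, 4 showed the step, and their median log2 difference was -0.03. MRPL57, a mitochondrion-specific protein, read 3.90, 3.18, 3.26 and 3.71 on its brightest probe set and 1.59, 1.43, 5.29 and 1.998 on another. MRPL30, a large-subunit protein, read 2.12, 2.11, 3.77 and 1.79 on its brightest probe set and 1.42, 1.40, 4.68 and 1.51 on another. For MRPL57 and MRPL30, as for MRPS12, the step of more than 2 log2 was on a dimmer probe set alone. The one dimmer probe set past the bound belonged to MRPS22, at 2.63, 1.96, 4.08 and 3.07. Its difference was 1.28 (bound 1.21-fold), beside 0.13 on the brightest. Both of these MRPS22 probe sets are of the kind that can cross-hybridise. Over all 137 probe sets the median difference was 0.32, against -0.01 over all probe sets. Choosing the brightest probe set by the mean over all arrays favours one that is bright in a single array, and the lower median of the 137 probe sets is given for that reason. Averaged over their probe sets, MRPS30 had a difference of 0.59 and was no longer past the bound.

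**Figure D4:**
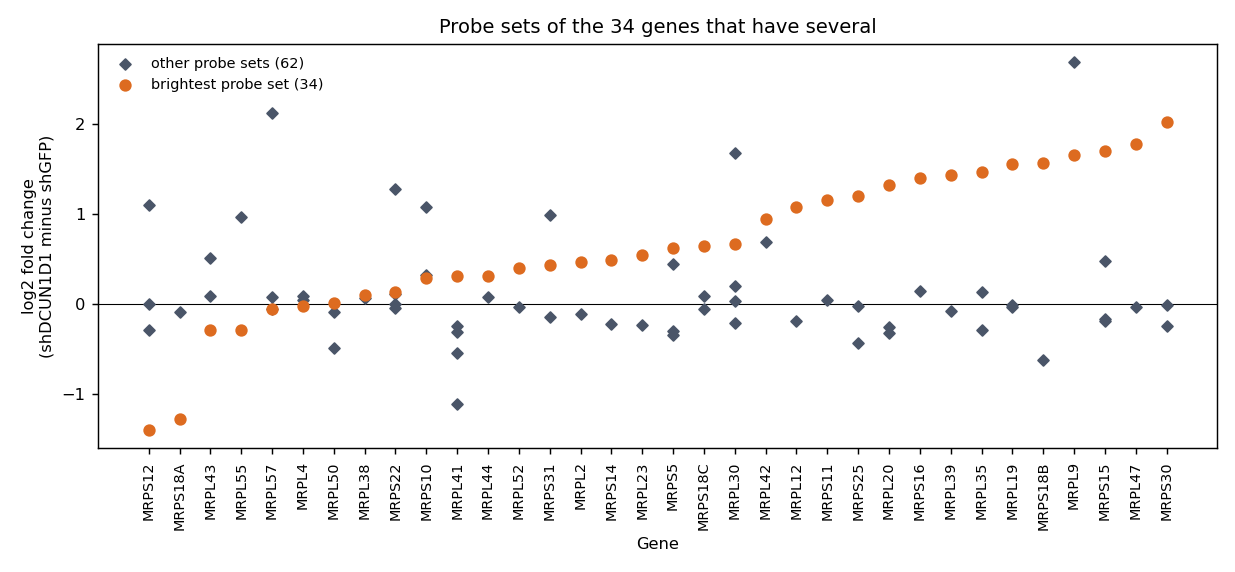
Log2 difference between knockdown and control means (vertical axis) of every probe set of the 34 genes measured by several, ordered by the value of the brightest probe set (orange circles), with the other 62 probe sets as grey diamonds. Most diamonds lie near 0, also for genes whose circle is above 1, and 26 of the 34 genes have marks on both sides of 0.

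Promoter sequence was examined because the genes moved together in 1 array. RefSeq promoter windows (GRCh38.p14) of 300 bases, 250 before and 50 after a transcription start, were matched by gene ID to 67 of the 75 genes. MRPL2, MRPL10, MRPL13, MRPL15, MRPL21, MRPL23, MRPL35 and MRPS28 had no matching entry. The core letters bound by 3 factors known for nuclear genes of mitochondrial proteins were searched on both strands: AAGATGGC for YY1, CCGGAAGT for the ETS family, to which GABPA belongs, and GCATGCGC for NRF1. The last overlaps its own reverse complement, and matches of different motifs overlapped in 0 windows of the genes. A match describes letters and is not a bound site. In the stretches that follow, written 5′ to 3′ on the strand of the gene, capitals mark the matches. They are a selection, limited to named genes with a match upstream of a start: genes past the bound (MRPL17 and MRPS18B), the paralog MRPS18C, the most negative gene (MRPS12), genes with the step in knockdown replicate 1 (MRPL3 and MRPL47) and a gene bright in all arrays (MRPL27).
MRPL17: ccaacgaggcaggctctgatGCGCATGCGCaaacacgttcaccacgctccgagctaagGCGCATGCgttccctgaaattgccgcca
MRPS18B: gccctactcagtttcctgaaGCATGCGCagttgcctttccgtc
MRPS18C: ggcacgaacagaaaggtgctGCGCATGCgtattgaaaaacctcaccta
MRPS12: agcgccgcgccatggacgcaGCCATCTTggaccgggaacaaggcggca
MRPL3: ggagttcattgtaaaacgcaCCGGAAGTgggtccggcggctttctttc
MRPL47: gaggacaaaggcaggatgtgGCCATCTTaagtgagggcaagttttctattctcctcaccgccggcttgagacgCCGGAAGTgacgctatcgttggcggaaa
MRPL27: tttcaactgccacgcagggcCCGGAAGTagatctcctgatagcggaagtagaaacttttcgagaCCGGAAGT

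The stretches lie at chr11:6683356-6683441 (minus strand) for MRPL17, chr6:30617797-30617839 (plus) for MRPS18B, chr4:83455902-83455949 (plus) for MRPS18C and chr19:38930712-38930759 (plus) for MRPS12. Those of the other genes lie at chr3:131502976-131503023 (minus) for MRPL3, chr3:179604650-179604750 (minus) for MRPL47 and chr17:50373185-50373256 (minus) for MRPL27. All of them end upstream of an annotated start, that is, outside the transcript from that start. MRPL17 held the NRF1 letters at both marked places, and MRPL47 held a YY1 match and an ETS match.

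The YY1 letters were in the windows of 21 of the 67 genes (31.3%), against 4.78% of the 15397 array genes with a window. Counted by window, they were in 27.7% of the 83 windows of these genes and 2.89% of all 35116 windows of this length. The ETS letters were in 11 genes (16.4%), against 7.08% of array genes, and in 15.7% of their windows, against 4.14% of all windows. The NRF1 letters were in 6 genes (8.96%), against 4.88%, and in 7.23% of their windows, against 3.05%. At least 1 of the 3 was in 29 genes (43.3%), against 15.2% of array genes. Of the YY1 matches in windows of these genes, some of which overlap, 16 of 24 began after the start, against 49.5% over all windows. Genes past the bound with YY1 letters were MRPS30, MRPS18A, MRPS18B and MRPL49, which include both directions.

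YY1 and ETS letters were found in genes with and without the step in knockdown replicate 1. Of the 18 such genes with a window, 6 (33.3%) held at least 1 of the 3 motifs, against 23 of the other 49 (46.9%). The YY1 letters were in 5 of the 18 (27.8%) and 16 of the 49 (32.7%), the ETS letters in 4 (22.2%) and 7 (14.3%), and the NRF1 letters in 0 and 6 (12.2%). These shares are descriptions and were not tested.

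Other genes of mitochondrial gene expression were counted from 4 lists written from general knowledge. Together they held 62 measured genes. Of these, 2 were higher past the bound, where 1.57% of all genes were, and 2 lower, where 3.64% were. Limma's adjusted p called 0 of them and 0% of all genes. The same shares of all genes apply to the counts per list below. The median log2 difference of the 62 genes was 0.19, between the 0.67 of the ribosomal proteins and the -0.01 of all genes. The step in knockdown replicate 1 was found in 8 of the 62 (12.9%), against 4.32% of all genes. Of 4 mitochondrial ribosome proteins with other names, 0 were past the bound and 1 had the step. This was DAP3, a GTP-binding protein of the small subunit, at 1.75, 1.77, 5.38 and 2.01.

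Of 26 assembly factors 1 was higher past the bound, 0 were lower and the median difference was 0.14. This was NOA1, a GTPase of mitochondrial ribosome assembly, at 2.26 and 2.52 in control cells against 4.42 and 3.39 in knockdown cells, a difference of 1.52 (SE 0.47). Of 17 translation factors 1 was higher past the bound, 0 were lower and the median was 0.20. This was GTPBP3, which modifies mitochondrial tRNAs, at 1.58, 1.37, 3.91 and 2.18. Both genes had non-overlapping groups, with knockdown replicate 1 the highest array. In the same list TUFM, the mitochondrial elongation factor Tu, read 2.64, 2.29, 6.51 and 2.74, the shape seen for MRPL3, and was not past the bound.

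Of 15 genes of mitochondrial DNA transcription and replication, 0 were higher past the bound and 2 were lower, with a median of -0.02. POLG, the catalytic subunit of the mitochondrial DNA polymerase, read 4.48 and 5.20 in control cells against 2.81 and 2.54 in knockdown cells, a difference of -2.16 (SE 0.46, limma adjusted p 0.590). TFAM, which packages mitochondrial DNA and activates its transcription, read 2.69, 3.44, 2.19 and 1.72, a difference of -1.11 (SE 0.38). Both had knockdown arrays below both controls. The nonspecific control and the BioB probe set were also lower in both knockdown arrays, and their part in this was not tested. POLG exceeded the nonspecific control in all arrays, in knockdown replicate 2 only narrowly, and both knockdown values of TFAM lay below it.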

How the data were processed

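DU145 RNA was hybridised to 4 single-channel Affymetrix arrays. What the authors deposited is 1 table of log2 signals, already processed from the scans. The software is Affymetrix Expression Console in the submitters' processing notes and dChip, with a smoothing spline, in the paper's methods, which name another array. The step that made the values is, from the sources used here, not settled. Gene names came from the platform annotation, and all 137 used were matched by gene ID to RefSeq (GRCh38.p14). An array has no read depth, and its precision rests on 2 arrays per group and on signal over background.

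The table was analysed as deposited. For genes with several probe sets the brightest on average over the 4 arrays was taken, a mean that includes knockdown replicate 1. Limma 3.58.1 (R 4.3.3) was fitted to all 19774 genes, allowing the variance to follow the mean signal, with p-values adjusted by Benjamini and Hochberg at a threshold of 0.05, and the fold bound (90% limit, 1.2-fold) used the moderated standard error. The fit was tested on simulated data in which a gene's spread was the same in all arrays. A single array that stands apart was not simulated. Alternatives were quantile normalization, median centring, cyclic loess, a filter on dim genes, averaging the probe sets of a gene, no variance trend, the methods' t-test, a replicate block and leaving out each array. The genes and lists were chosen with earlier results of these data known. Named were DCUN1D1, genes past the bound, up to 8 with the largest differences in each direction without overlap between groups, the 6 brightest, the 3 with most probe sets, the MRPS18 paralogs, MRPL12, and up to 4 past the bound per other list. Others were named after their values were seen, for contrast or to complete a count. Subunits and bacterial counterparts were assigned from general knowledge.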

Additional observations from a re-analysis of the deposited data

How the results depend on the processing

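The number of genes higher past the fold bound (5) became 3 when probe sets of a gene were averaged (0.87% of all genes; MRPS18B and MRPS30 lost) and 3 with the methods' t-test (0.895%; MRPL17, MRPL49 and MRPS30 lost, MRPS14 gained). With quantile normalization it stayed 5, with MRPL17 lost and MRPS24 gained. It ranged from 0 to 50 when 1 array was left out. The number lower (1) became 2 with quantile normalization (4.06%; MRPS12 gained), 0 with the mean of probe sets (2.08%), and ranged from 0 to 4 without 1 array. By limma's adjusted p the number higher ranged from 0 to 35 and that of probe sets called from 0 to 43, the highest in each case without knockdown replicate 2. Probe sets higher (6) became 3 with the methods' t-test and ranged from 0 to 63 without 1 array, and probe sets lower (1) became 2 with quantile normalization and ranged from 0 to 5. DCUN1D1 ranged from -1.02 to -0.47 and was past the bound without control replicate 2, at -1.02. With the replicate block 6 genes were higher past the bound (1.78% of all genes), MRPL12 being added, and 1 was lower (2.61%). The deviations of same-numbered arrays correlated at -0.04 over all genes. With 2 arrays per group, this cannot decide whether replicate numbers pair the samples, which the labels do not say.

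The direction turned for MRPL27 (-0.16 with quantile normalization), MRPL41 (-8e-05 with quantile normalization and -0.38 with the mean of probe sets), MRPL55 (0.34 with the mean of probe sets) and MRPS22 (-0.51 with quantile normalization and -0.063 with cyclic loess). Without 1 array MRPL14 ranged from -0.51 to 0.12, MRPL27 from -0.10 to 0.54, MRPL30 from -0.32 to 1.66, MRPL41 from -0.0065 to 0.63, MRPS18C from -0.063 to 1.35 and MRPS22 from -0.037 to 0.30. The cause was not tested. The median log2 difference of the 75 genes was 0.41 with quantile normalization, 0.74 with cyclic loess, 0.52 with the mean of probe sets, and -0.02 to 1.57 without 1 array. The filter on dim genes uses the mean over all arrays, which a gene can pass through knockdown replicate 1 alone, so its median is not given. Signal at or below the nonspecific control limits the rest. Of the 75 genes, 53 (70.7%) exceeded it in both arrays of neither group, against 80.9% of all genes.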
